A study of Homo sapiens with 20 samples.

Results

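The 45 genes described here encode the proteins of the large (60S) subunit of the cytosolic ribosome, from RPL3 to RPL41 together with the stalk proteins RPLP0, RPLP1 and RPLP2. The members were chosen by gene symbol, and all 45 were found among the 62266 named genes of the deposited tables. Total RNA had been sequenced from cytoplasmic RNA granules (called granule cores or SG in the labels) and from exosomes, small vesicles that cells release, of HEK293, an established human embryonic kidney line. The cells were either HD-induced, as a model of Huntington's disease, or controls, and the sources used here do not state the means of induction. The 4 groups are HD-induced granules (HD granules), control granules, HD-induced exosomes (HD exosomes) and control exosomes, with 5 libraries each that the study calls biological replicates. All groups share the cell line, the mirVana isolation kit, the stranded total RNA library and paired reads of 100 bases, and p-values measure the spread between these libraries.

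The large subunit holds the peptidyl transferase centre, which joins amino acids, and the tunnel through which the new chain leaves. Most ribosomal protein mRNAs begin with a 5' terminal oligopyrimidine (TOP) tract, a C followed by a run of pyrimidines, and their translation is switched off together when mTOR is inhibited, through the RNA-binding protein LARP1. TOP mRNAs are short, stable and abundant, and they are known to enter stress granules when amino acids run out. Because the subunit takes its proteins in fixed proportions, the mRNAs of its proteins are often followed as a group.

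Depth ranged from 27.0 to 35.8 M estimated reads (M stands for 1000000) in HD granules and from 17.4 to 38.4 M in control granules. HD exosomes 1, 2, 3 and 5 held 12.1, 14.4, 1.98 and 4.25 M reads, and control exosomes 8.99 to 15.6 M. HD exosome 4 held 1074 reads, of which 22 lay on members, and HD exosome 2 had 86.6% of its reads on entries with no gene name. HD granule 3 stood apart from the other HD granules in the share and makeup of the members' reads, and the counts of members called between granules and exosomes of HD-induced cells are given with and without these 3 libraries. Of 8 HEK293 markers, 6 reached a mean of 1 TPM (transcripts per 1000000, a level corrected for length) in every group, and their summed TPM was 69.1 to 548 in HD granules and 62.8 to 119.8 in control granules, with 29.1 to 338 for HD exosomes and 219 to 279 in control exosomes. Summed TPM of 9 blood markers was 11.9 to 63.1 in HD granules and 9.42 to 33.3 in control granules, with 0 to 4091 for HD exosomes and 35.6 to 188 for control exosomes. For 7 skin markers it was 0.407 to 0.885 in HD granules and 0.111 to 0.465 in control granules, with 2.38 to 214.6 for HD exosomes and 0.972 to 11.98 in control exosomes. Of these markers PPBP was at 0 in all groups, PF4 in all but control exosomes, LORICRIN in all but HD exosomes and KRT14 in HD exosomes. The part of such RNA in the differences between compartments was not tested.

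Together the 45 mRNAs took 6.01, 11.4, 2.91, 11.01 and 11.7% of named-gene reads in HD granules 1 to 5, and 4.66, 5.36, 5.95, 8.06 and 7.35% in control granules 1 to 5. In exosomes they took 4.92, 4.27, 4.90, 3.09 and 4.63% in HD replicates 1 to 5 and 3.81, 4.55, 4.10, 4.05 and 4.31% in control replicates 1 to 5. Every control granule library lay above every control exosome library, whereas HD granule 3 lay below all HD exosome libraries. The means were 8.60% ± 3.95 (SD, n = 5) in HD granules, 6.28% ± 1.41 in control granules, with 4.36% ± 0.760 for HD exosomes and 4.16% ± 0.278 for control exosomes.

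Single members differed widely in level within each group. In TPM, RPL39, a short protein that lines the exit tunnel, had the highest mean in all 4 groups. It stood at 4712, 10928, 2301, 12066 and 13486 TPM in HD granules 1 to 5 and at 5828, 4227, 5552, 6972 and 7545 TPM in control granules 1 to 5. In exosomes it stood at 2239.8, 381, 2616, 6047 and 2796 TPM in HD replicates 1 to 5 and at 1201, 1841, 1571, 1642 and 2081 TPM in control replicates 1 to 5. RPL41, the shortest member at 25 residues, came next in granules, with a mean of 8046 ± 3541 TPM (SD, n = 5) in HD granules and 6023 ± 2106 TPM in control granules, against 8699 ± 4900 TPM and 6025 ± 1295 TPM for RPL39. The gap between RPL39 and RPL41 was smaller than their spread in both granule groups. RPL23 followed in granules, at 3488 ± 1720 TPM in HD granules and 2307 ± 923 TPM in control granules. In control exosomes the order after RPL39 was another, with RPLP0 at 1245 ± 132 TPM and RPL4 at 1164 ± 169.7 TPM, which did not differ beyond their spread. In HD exosomes RPL23 and RPL15 followed RPL39, at 1969 ± 1209 TPM and 1603 ± 966 TPM. Without HD exosome 4 (n = 4) the order there was RPL39 at 2008 ± 1109 TPM, RPL41 at 1802 ± 1029 TPM, RPL23 at 1678 ± 1177 TPM and RPLP0 at 1379 ± 851 TPM, with gaps smaller than the spread.

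At the low end stood RPL27A, at 73.6 ± 12.1 TPM (SD, n = 5) in HD granules, 65.4 ± 21.6 TPM in control granules, with 75.1 ± 113 TPM for HD exosomes and 28.2 ± 3.97 TPM in control exosomes. RPL36A was the lowest member of both exosome groups, at 25.1 ± 37.2 TPM in HD exosomes and 18.6 ± 7.30 TPM in control exosomes, and RPL28 was the lowest of control granules at 51.8 ± 9.09 TPM. The highest mean was 118, 116, 112 and 89.4 times the lowest in HD granules, control granules, HD exosomes and control exosomes, and 63.9 times in HD exosomes without replicate 4. RPL14 followed RPL36A and RPL27A from the low end in control exosomes, at 148 ± 43.6 TPM. Across the 45 members, mean TPM in control granules and control exosomes gave a Spearman rho of 0.50, and in HD granules and control granules 0.98. These are correlations across genes that share libraries, given as a description. TPM here is a share of all entries, named or not, so it is low throughout HD exosome 2.

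The first comparison set granules against exosomes in control cells, the question named in the study's design text being which RNAs each compartment holds. The ribosomal protein mRNAs did not move as a block. Of the 45 members, all tested, 24 were higher and 9 lower in granules at an adjusted p under 0.05 (edgeR, quasi-likelihood test on gene counts), and 12 did not pass. Over all 14777 genes tested, 30.0% were called higher and 32.5% lower, so that more than the background share of members was higher and fewer were lower. The median log2 fold change was 0.77 over members and -0.02 over all genes. For 20 members every granule library lay above every exosome library and for 8 the reverse held, while 23.7% and 25.4% of all genes did so. In bulk preparations, fewer particles that hold an mRNA and less of it per particle cannot be told apart.

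**Figure D1:**
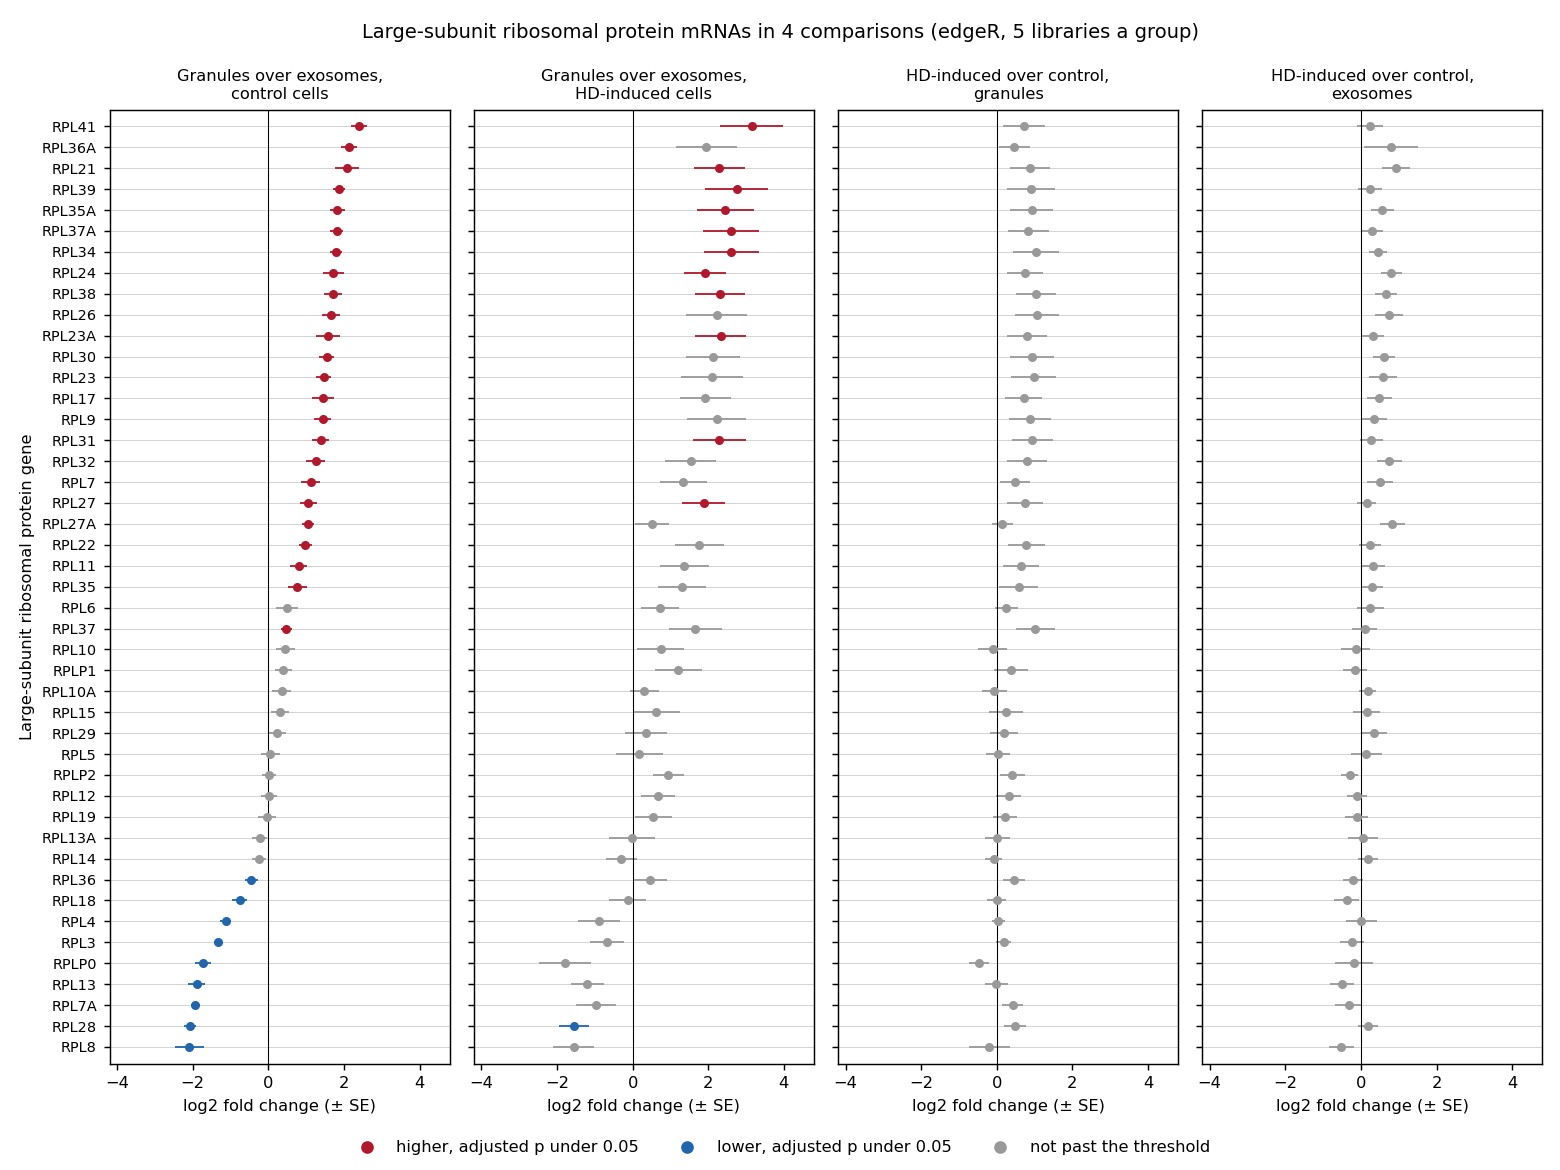
Log2 fold change (horizontal axis, bars are ± SE) of the 45 members in 4 comparisons of 5 libraries a group, in the order of the first panel. Colours mark adjusted p under 0.05, and in the control panel they run from RPL41 at 2.40 to RPL8 at -2.09, while no member was called in the HD-induced over control panels.

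Short basic proteins were among those with the highest folds. RPL41, a peptide at the interface of both subunits, stood at 4023, 4001, 5411, 6589.8 and 6056 CPM in control granules 1 to 5 and 759, 869.7, 1206, 1003 and 1118 CPM in control exosomes 1 to 5. Every granule library exceeded every exosome library, and the log2 fold change was 2.40 ± 0.20 (SE, adjusted p = 1.43e-06, edgeR). The tunnel protein RPL39 stood at 4071, 5261, 4648, 5899 and 4950.1 CPM in control granules 1 to 5 and 1129.5, 1389, 1387, 1309 and 1584 CPM in control exosomes 1 to 5. Its groups did not overlap either, with a log2 fold change of 1.87 ± 0.15 (adjusted p = 1.17e-06, edgeR). RPL37A, a zinc-binding protein, stood at 1420, 2205, 2041, 2747 and 2379 CPM in control granules 1 to 5 and 562, 651, 676, 567 and 632 CPM in control exosomes 1 to 5. The lowest granule value was again above the highest exosome value, and the log2 fold change was 1.81 ± 0.17 (adjusted p = 3.39e-06, edgeR). RPL35A, mutated in some patients with Diamond-Blackfan anaemia, stood at 1161, 1618, 1743, 2315 and 2003 CPM in control granules 1 to 5 and 334, 572, 505, 521 and 561 CPM in control exosomes 1 to 5. Granules and exosomes did not overlap, and the log2 fold change was 1.83 ± 0.21 (adjusted p = 1.21e-05, edgeR).

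A pair of members with high folds have abundant pseudogenes, described further on. RPL36A, which binds near the exit site for spent tRNA, stood at 135, 150.1, 170.1, 212 and 193 CPM in control granules 1 to 5 and 36.5, 51.3, 43.1, 23.2 and 41.6 CPM in control exosomes 1 to 5. All granule values lay above all exosome values, with a log2 fold change of 2.13 ± 0.20 (SE, adjusted p = 3.13e-06, edgeR). RPL21, linked to an inherited hair loss, stood at 767, 825, 1215, 1787 and 1414 CPM in control granules 1 to 5 and 119, 359, 242, 300 and 403 CPM in control exosomes 1 to 5. These groups were also apart, with a log2 fold change of 2.08 ± 0.33 (adjusted p = 1.68e-04, edgeR).

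The proteins around the mouth of the exit tunnel, where chaperones and the signal recognition particle dock, include RPL17, RPL19, RPL23A, RPL26, RPL31 and RPL35. Of these mRNAs, RPL26 was higher in granules by a log2 fold change of 1.66, RPL23A by 1.57, RPL17 by 1.44, RPL31 by 1.38 and RPL35 by 0.77, all called, while RPL19 stood at -0.03 ± 0.24 (SE, not called). With a correction for GC content RPL19 was called higher too, at 0.69 (adjusted p = 0.0467, edgeR). The other members called higher had log2 fold changes between 0.47 (RPL37) and 1.80 (RPL34). They include RPL24 at 1.72, a late-joining protein at the subunit interface, RPL38 at 1.70, known from mouse for a role in translating Hox mRNAs, and RPL22 at 0.98, a protein that cells can replace by its paralog RPL22L1. RPL5 and RPL11, which assemble with 5S rRNA and bind MDM2, differed between themselves: RPL11 was higher at 0.81 ± 0.23, and RPL5 stood at 0.05 ± 0.25 without passing the test.

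The members that were lower in granules include proteins of the catalytic core and the base of the stalk. RPL3, which reaches into the peptidyl transferase centre, stood at 709, 706, 665, 646 and 683 CPM in control granules 1 to 5 and 1803, 1881, 1627, 1633 and 1565 CPM in control exosomes 1 to 5. Its highest granule value was under its lowest exosome value, and the log2 fold change was -1.32 ± 0.11 (SE, adjusted p = 1.18e-06, edgeR). RPL8, another protein of that centre, stood at 300.3, 841, 239, 455 and 159 CPM in control granules 1 to 5 and 2154, 1672, 1533, 1787 and 1368 CPM in control exosomes 1 to 5. The groups did not overlap, and the log2 fold change was -2.09 ± 0.38 (adjusted p = 4.79e-04, edgeR). RPLP0, the base of the stalk that recruits elongation factors, stood at 894, 1554, 982, 1892 and 1124 CPM in control granules 1 to 5 and 4868, 4191, 3875, 4266 and 4011 CPM in control exosomes 1 to 5. Granules were below exosomes throughout, with a log2 fold change of -1.72 ± 0.21 (adjusted p = 2.60e-05, edgeR). RPLP1 and RPLP2, the acidic proteins that RPLP0 carries, did not pass the test, at 0.40 ± 0.22 and 0.02 ± 0.19. After a correction for GC content both were called higher, at 1.02 and 0.83.

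RPL7A stood at 478, 428, 423, 472 and 478 CPM in control granules 1 to 5 and 1504, 1941, 1740.3, 1759.5 and 1743 CPM in control exosomes 1 to 5. No library of granules reached the exosome range, and the log2 fold change was -1.93 ± 0.12 (SE, adjusted p = 1.39e-07, edgeR). For RPL13 the values were 246, 414, 219, 376 and 185 CPM in control granules 1 to 5 and 1239, 1031, 981, 1175 and 938 CPM in control exosomes 1 to 5. They were separate as well, with a log2 fold change of -1.90 ± 0.22 (adjusted p = 1.58e-05, edgeR). RPL28, which has no counterpart in Saccharomyces cerevisiae, stood at 122, 135, 87.0, 94.4 and 89.5 CPM in control granules 1 to 5 and 512, 476, 420.4, 426 and 384 CPM in control exosomes 1 to 5. Its granule values were all under its exosome values, and the log2 fold change was -2.07 ± 0.15 (adjusted p = 4.71e-07, edgeR). RPL4, which forms part of the tunnel wall, was lower at -1.13 ± 0.15, but with protein-coding transcripts alone its log2 fold change was 0.73 and not called. RPL18 was lower at -0.76 ± 0.20 and RPL36 at -0.45 ± 0.18, and neither kept its call or its sign after a correction for GC content, at 0.28 and 0.55. RPL36 lost its call in 15 of 19 other settings.

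GC content was a measured companion of the fold change. Across all 13093 protein-coding genes with a GC value, the log2 fold change of granules over exosomes in control cells had a Spearman rho of -0.51 with the GC content of transcripts, and across the 45 members it was -0.68. After the GC correction, 33 members were called higher and 7 lower, beside 34.2% and 28.6% of all genes. Those called higher then included RPL10, RPL10A, RPL12, RPL13A, RPL15, RPL19, RPL29, RPLP1 and RPLP2, which were not called without it. The 6 members with the highest folds and the 6 with the lowest kept their calls in all 19 other settings. The lowest folds were nearer to 0 with the GC correction, at -1.19 for RPL8, -1.15 for RPL28, -0.89 for RPL13, -0.99 for RPLP0, -1.42 for RPL7A and -0.47 for RPL3. Library scaling by median ratios moved the median of all genes to 0.09, against -0.02 with TMM factors, and left 24 members higher and 8 lower. The share of all genes called with that scaling is not given here. DESeq2 called 26 higher and 8 lower (34.5% and 30.4% of all genes), voom with quality weights 25 and 9 (33.6% and 37.6%) and a replicate block 24 and 9 (29.6% and 33.3%). The part of base composition in the remaining differences was not tested.

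The starts of these genes are printed because the TOP tract at the first transcribed base is what the mRNAs are known to share. Each window runs 5' to 3' on the strand of the gene, with 15 bases before the annotated start followed by the first 15 transcribed bases, and capitals mark the run of C and T that begins with a C at the start. The first 6 had the highest folds in control granules and the last 5 are members with low folds.
RPL41: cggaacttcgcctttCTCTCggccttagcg
RPL36A: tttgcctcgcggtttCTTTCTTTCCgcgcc
RPL21: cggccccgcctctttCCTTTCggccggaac
RPL39: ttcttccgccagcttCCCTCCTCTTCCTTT
RPL35A: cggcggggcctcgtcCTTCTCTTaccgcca
RPL37A: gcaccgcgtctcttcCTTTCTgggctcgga
RPL28: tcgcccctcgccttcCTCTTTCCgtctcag
RPL7A: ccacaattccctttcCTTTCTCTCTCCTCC
RPL13: ggccctgctatcatcCCagagtgcattgcg
RPLP0: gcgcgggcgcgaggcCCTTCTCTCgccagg
RPL3: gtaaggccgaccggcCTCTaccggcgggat

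The windows are RefSeq sequence of build GRCh38.p14 and lie at chr12:56116618-56116647 (plus strand) for RPL41, chrX:101390996-101391025 (plus strand) for RPL36A, chr13:27251543-27251572 (plus strand) for RPL21 and chrX:119791616-119791645 (minus strand) for RPL39. Those of RPL35A and RPL37A lie at chr3:197950175-197950204 (plus strand) and chr2:216498829-216498858 (plus strand). Among the members with low folds, RPL28 starts in chr19:55385917-55385946 (plus strand), RPL7A in chr9:133348203-133348232 (plus strand) and RPL13 in chr16:89560642-89560671 (plus strand). RPLP0 starts in chr12:120201097-120201126 (minus strand) and RPL3 in chr22:39319609-39319638 (minus strand).

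A start sequence was matched for 38 members. Of these, 27 began with C (71.1%), and 25 (65.8%) had a tract of at least 5 bases of C or T from that C, read on the sense strand only. Over all 35116 starts in the table the share with such a tract was 4.07%, and among 25 small-subunit genes with a start it was 72% (18 genes). The tract was found on both sides of the comparison. Of the 25 members that hold it, 14 were higher and 5 lower in control granules, with a median log2 fold change of 0.98, and of the 13 without it 5 were higher and 3 lower, with a median of 0.45. Among all genes tested there, 30.0% were higher and 32.5% lower. Median coding length was 384 nucleotides in the set with the tract and 612 in the set without it, and its part in that difference was not tested. RPL28, RPL7A and RPLP0, all lower, begin with 8, at least 15 and 9 pyrimidines, and RPL41, with the highest fold, with 5. A start without such letters says only that the annotated first base is another.

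Short members had the higher folds. Across the 45 members the log2 fold change in control cells had a Spearman rho of -0.62 with coding length, which spans 75 to 1281 nucleotides, whereas across 13074 protein-coding genes rho was 0.09. With the GC correction it was -0.65 over members, and across members coding length and GC content had a rho of 0.17. Of 15 members with a coding length under 400 nucleotides 12 were higher and 1 lower, with a median log2 fold change of 1.54. From 400 to under 600 nucleotides 11 of 16 were higher and 2 lower (median 1.16), and at 600 or more 1 of 14 was higher, RPL7 at 1.12, and 6 lower (median -0.24). Of all protein-coding genes, 307 of 644 in the shortest class were higher and 159 lower, 253 of 963 and 357 in the middle class, and 3105 of 11467 and 4081 in the longest, with medians of 0.54, -0.20 and -0.12. Small-subunit mRNAs gave a rho of -0.53 over 32 genes and mitochondrial large-subunit mRNAs -0.27 over 49. These are descriptions across genes of the same libraries.

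**Figure D2:**
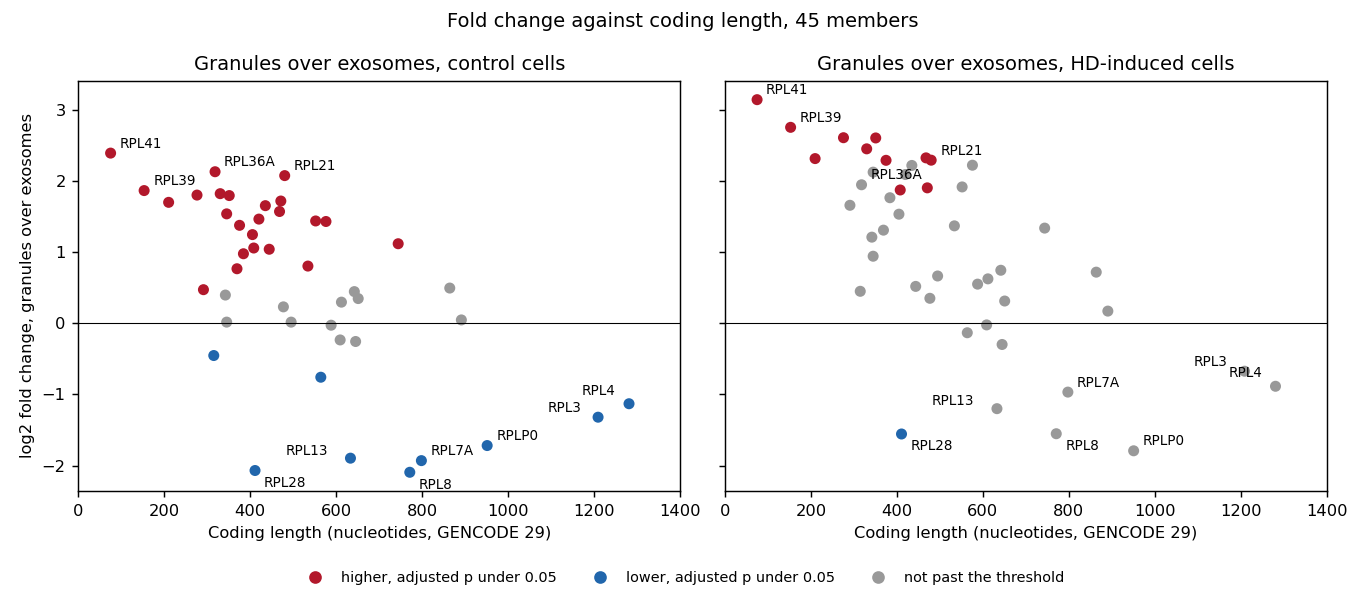
Log2 fold change of granules over exosomes (vertical axis) against coding length in nucleotides (horizontal axis) for 45 members, 1 point a gene, in control cells and in HD-induced cells. Points slope downward in both panels, with rho of -0.62 and -0.70, and RPL28 lies below members of like length.

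Many genes of this class carry small nucleolar RNAs in their introns, which guide chemical modification of rRNA. An annotated snoRNA lay within the span of 18 members, of which 9 were higher and 4 lower in control granules (median log2 fold change 0.46). Of the 27 without one, 15 were higher and 5 lower (median 0.81), where 30.0% of all genes were higher and 32.5% lower.

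The same comparison in HD-induced cells gave 11 members higher and 1 lower of 45, beside 11.9% and 5.77% of 14431 genes (edgeR). The median log2 fold change was 1.31 over members and 0.17 over all genes, and 35 members had a positive value. RPL41 stood at 6299.9, 15109, 1416, 17252 and 16293 CPM in HD granules 1 to 5 and 1561, 1874, 1402, 0 and 1153 CPM in HD exosomes 1 to 5. The 4 granule libraries other than replicate 3 were above all exosomes, and HD granule 3 lay within the exosome range. The log2 fold change was 3.15 ± 0.84 (SE, adjusted p = 0.0220, edgeR). For RPL39 the values were 5196, 16876, 870.1, 19092 and 18484 CPM in HD granules 1 to 5 and 1962, 2755, 1475, 413 and 2029 CPM in HD exosomes 1 to 5. HD granule 3 was again inside the exosome range, and the log2 fold change was 2.76 ± 0.83 (adjusted p = 0.0357, edgeR), a call lost with the GC correction (1.96, adjusted p = 0.105). RPL37A stood at 2499, 7039.9, 677, 7443 and 7472 CPM in HD granules 1 to 5 and 970.3, 1171, 671, 0 and 961 CPM in HD exosomes 1 to 5. Apart from replicate 3, granules were above exosomes, at a log2 fold change of 2.61 ± 0.74 (adjusted p = 0.0279, edgeR).

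RPL34 stood at 1372, 5196, 268, 5077 and 4670.2 CPM in HD granules 1 to 5 and 513, 766, 359.7, 138 and 729.9 CPM in HD exosomes 1 to 5. The pattern by library was that of RPL41, and the log2 fold change was 2.61 ± 0.72 (SE, adjusted p = 0.0254, edgeR). RPL35A stood at 1983, 7058, 527, 6026 and 6488 CPM in HD granules 1 to 5 and 777, 1152, 781, 0 and 979.5 CPM in HD exosomes 1 to 5. HD granule 3 lay inside the exosome range, above HD exosome 4 alone, and the log2 fold change was 2.46 ± 0.74 (adjusted p = 0.0357, edgeR). RPL23A, the docking site for the signal recognition particle, stood at 2181.9, 5399, 853, 5833 and 6742 CPM in HD granules 1 to 5 and 936, 951, 994, 0 and 960 CPM in HD exosomes 1 to 5. Its log2 fold change was 2.33 ± 0.68 (adjusted p = 0.0315, edgeR), with granule replicate 3 under 4 exosome values, and with pseudogene reads added it was 1.84 and not called (adjusted p = 0.0794, edgeR). RPL28 was the member called lower, at 146, 167, 348, 115 and 177 CPM in HD granules 1 to 5 and 681, 460.4, 837, 138 and 435 CPM in HD exosomes 1 to 5. HD granule 3 had its highest granule value and HD exosome 4 its lowest exosome value, and the log2 fold change was -1.56 ± 0.40 (adjusted p = 0.0177, edgeR). RPLP0 at -1.79 ± 0.69 and RPL8 at -1.55 ± 0.54 had values of like size without passing the test (adjusted p = 0.0843 and 0.0606, edgeR).

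**Figure D3:**
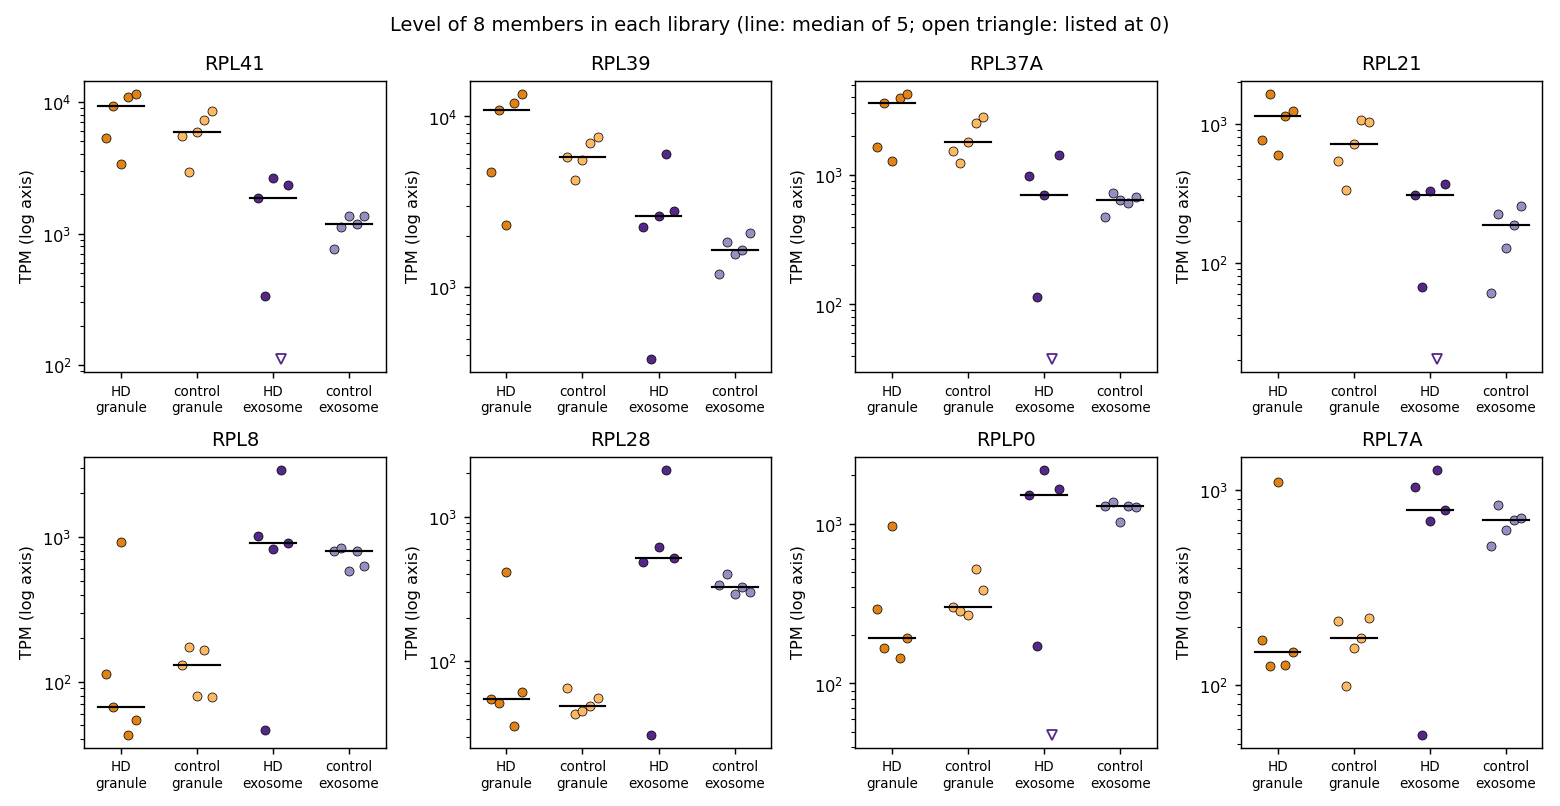
TPM (log axis) of 8 members in each library by group, with a line at the median of 5 and an open triangle for a library listed at 0. RPL41, RPL39, RPL37A and RPL21 are higher in most granule libraries, RPL8, RPL28, RPLP0 and RPL7A are lower in them, and HD granule 3 lies with the exosomes for RPL8, RPL28, RPLP0 and RPL7A. For RPL39, HD granules 1 and 3 also lie inside the HD exosome range of 381 to 6047 TPM.

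These counts depended on single libraries. Without HD granule 3, 24 members were higher and 5 lower (21.3% and 17.4% of all genes), and without HD exosome 4, 13 were higher and 6 lower (10.2% and 7.85%). Without HD granule 2, 4 or 5, or without HD exosome 3, 0 members passed, while 791 to 1229 genes were called higher. The smallest adjusted p of a member then lay between 0.0507 and 0.0554 (edgeR). Without HD granule 1 or HD exosome 1, 2 or 5, between 1 and 6 members were called higher and 0 or 1 lower. The shares of all genes in these runs are not given here, so their counts show only a dependence on single libraries. With all libraries, DESeq2 called 24 higher and 3 lower (14.4% and 3.95%), the GC correction gave 16 and 5 (18.3% and 17.4%), voom with quality weights 27 and 5 (20% and 21.7%) and a replicate block 4 and 2 (18.0% and 9.81%). RPL41, RPL39, RPL37A, RPL34, RPL35A and RPL23A, described above, were not called with that block. With HD granule 3 and HD exosomes 2 and 4 left out together, 24 were higher and 7 lower, beside 18.6% and 16.4% of all genes. In those 7 libraries every granule value lay above every exosome value for 25 members and below for 7, as for 25.3% and 16.8% of all genes. With all libraries kept, 0 members had groups free of overlap. HD granule 3 had been set apart by the members' own reads, so the counts without it are not separate evidence. The log2 fold changes without the 3 libraries were 3.25 for RPL41, 2.97 for RPL39, -2.17 for RPL28, -2.29 for RPLP0, -2.46 for RPL8 and -1.71 for RPL7A. Coding length gave a rho of -0.70 with all libraries and -0.71 without the 3.

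The second question was whether HD induction changed these mRNAs within a compartment. In granules, 0 of 45 members were called in either direction, as were 0% of 16750 genes (edgeR), and at an unadjusted p under 0.05 there were 0 members and 215 genes. DESeq2 called 0 members and 4 genes (0.0240%), and voom with quality weights 0 members beside 0.0119% of genes higher and 0.0179% lower. The median log2 fold change of HD over control granules was 0.48 over members and 0.04 over all genes, and 38 members had a positive value. RPL37, a zinc-binding protein, had the smallest p: it stood at 1227, 3555, 435, 4254 and 3853 CPM in HD granules 1 to 5 and at 1039, 1404, 1197, 1526 and 1396 CPM in control granules 1 to 5. HD granules 2, 4 and 5 were above all controls, HD granule 1 was among them and HD granule 3 was below all of them. The log2 fold change was 1.02 ± 0.52 (SE, adjusted p = 0.9995, edgeR). RPL38 gave 1.04 ± 0.53 with the same library pattern, RPLP0 -0.46 ± 0.27 and RPL14 -0.08 ± 0.22. Without HD granule 3 the members' median was 0.72 with 0 called, and the smallest adjusted p was 0.489 (edgeR). Other settings lowered the median, to 0.37 without HD granule 5, 0.40 without HD granule 2, 0.39 without control granule 1 and 0.39 with a replicate block. With voom quality weights, which give less weight to libraries that vary more, the median was 0.84 and the smallest adjusted p 0.0744.

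In exosomes, 0 of 45 members and 0% of 12936 genes were called (edgeR), with 5 members and 980 genes at an unadjusted p under 0.05, and DESeq2 called 0 of each. Members called were also 0 without HD exosome 4, where 0.00748% of genes were higher, and with a replicate block, where 0.348% of genes were higher and 1.94% lower. The median log2 fold change of HD over control exosomes was 0.24 over members and -0.03 over all genes. For members it was 0.082 without HD exosome 2, 0.13 with no count filter, 0.16 with DESeq2 and 0.23 without HD exosomes 2 and 4. The members' median was larger, at 0.35, both without HD exosome 4 alone and with the GC correction. RPL24 had the smallest p, at 528, 750.2, 745, 156 and 511 CPM in HD exosomes 1 to 5 and 177, 449, 357, 338 and 423 CPM in control exosomes 1 to 5. HD exosomes 1, 2, 3 and 5 were above all controls and HD exosome 4, with few reads, was below them, and the log2 fold change was 0.81 ± 0.28 (SE, adjusted p = 0.598, edgeR). RPL27A followed at 0.83 ± 0.33, with HD exosome 5 far above the rest. RPL8 stood at -0.52 ± 0.34 and RPL13 at -0.50 ± 0.32, values that turned positive with the GC correction, at 0.14 and 0.086. Fold changes in exosomes had a Spearman rho of -0.65 with GC content across 12184 protein-coding genes and of -0.60 across members. With the GC correction 44 of the 45 members were positive, with 0 called. The part of base composition in the values without it was not tested.

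The difference between the HD effect in granules and that in exosomes, fitted over all 20 libraries, was called for 0 of 45 members, beside 0.00619% of 16154 genes higher and 0.0124% lower (edgeR), and DESeq2 also called 0 members, beside 0.0372% and 0.0619% of genes. At an unadjusted p under 0.05 there were 0 members and 778 genes. The median was 0.43 over members and 0.11 over all genes, and the smallest adjusted p of a member was 0.875. The members' median was 0.27 without HD exosome 4 (29 positive, where all libraries gave 38), 0.28 without HD granule 2 or 5, 0.085 with the GC correction (24 positive), 0.70 with voom and 0.47 without HD granule 3 and HD exosomes 2 and 4. RPLP2 had 0.79 ± 0.43 (SE), RPL36 0.76 ± 0.45, RPL27A -0.65 ± 0.48 and RPL14 -0.19 ± 0.41. These p-values do not show that the HD effect was alike in both compartments.

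The deposited estimates are given per transcript, so the kind of transcript could be followed. Transcripts annotated with a retained intron, which keep an intron and are not translated into the usual protein, took 7.63% ± 1.14 (SD, n = 5) of member reads in control granules and 11.5% ± 0.559 in control exosomes, but 10.9% ± 1.18 and 8.75% ± 0.329 when each gene counted equally. RPL4 stood out, whose reads lay at 87.4% ± 11.9 in HD granules, 83.1% ± 15.9 in control granules, 98.0% ± 1.86 (n = 4, without HD exosome 4) in HD exosomes and 93.6% ± 8.19 in control exosomes on such transcripts. Its entries with the most reads were retained-intron entries of 1396 and 582 nucleotides, followed by a protein-coding entry of 565. How well the estimates divide reads among such entries was not tested, so the share does not show that RPL4 mRNA was mostly untranslated. For RPL11 the share was 61.8% ± 1.35 in control granules and 60.9% ± 6.31 in control exosomes, which differed by less than their spread.

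For RPL3 the retained-intron share was 22.6, 32.2, 7.66, 30.3 and 24.6% in HD granules 1 to 5 and 1.18, 2.03, 2.70 and 1.48% in HD exosomes 1, 2, 3 and 5. In control cells it was 19.98, 25.7, 23.2, 22.6 and 16.5% in granules 1 to 5 and 2.08, 1.02, 1.94, 1.35 and 0.994% in exosomes 1 to 5. Every granule library lay above every exosome library in either state, HD granule 3 included. RPL18 gave 20.9% ± 8.68 in HD granules (SD, n = 5) and 0.99977% ± 0.816 in HD exosomes (n = 4), and 16.6% ± 5.91 in control granules and 1.43% ± 0.396 in control exosomes. Of 38 members with at least 50 reads in every control library, 15 had a higher share in all granules than in all exosomes and 0 a lower one. Among 6027 genes, 45.8% and 0.614% did so, so the members' count is no larger than that background. In control cells the summed reads of RPL3 were lower in granules, as were those of RPL18 without the GC correction, and in HD-induced cells neither gene passed the test, at -0.67 and -0.13.

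Ribosomal protein genes have left many processed pseudogenes, copies of the mRNA reinserted into the genome, and reads can be split between a gene and its copies. The tables name 1083 pseudogenes of the members. Their reads, relative to members and pseudogenes together, were 1.51% ± 0.214 (SD, n = 5) in HD granules, 1.47% ± 0.155 in control granules, with 1.99% ± 1.37 for HD exosomes and 2.39% ± 0.373 in control exosomes. For RPL21 the share was 1.74, 1.38, 1.48, 0.938 and 2.90% in control granules 1 to 5 and 38.8, 12.1, 39.1, 29.9 and 28.4% in control exosomes 1 to 5, with no overlap, and RPL21P16 held 91.8% of the pseudogene reads of RPL21 in control exosomes. RPL23A gave 4.21% ± 4.12 in control granules and 34.4% ± 6.85 in control exosomes, mostly RPL23AP42. In HD-induced cells RPL21 gave 2.52% ± 1.72 in granules and 23.5% ± 15.6 in exosomes (n = 4), where HD exosome 2, at 1.81%, lay inside the granule range. RPL36A had most of its reads on a copy in every group, 79.9% ± 0.375 in control granules and 85.9% ± 3.45 in control exosomes, with 99.1% of the exosome copy reads on RPL36AP37, so its own level is uncertain. With pseudogene reads added to their parents, 24 members were called higher and 9 lower in control cells. The main run gave the same counts, beside 30.0% and 32.5% of all genes. Over the 19 other settings in control cells, the log2 fold change was 0.999 to 1.85 for RPL23A and 1.62 to 2.33 for RPL21. Both genes kept their calls in all of these settings.

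**Figure D4:**
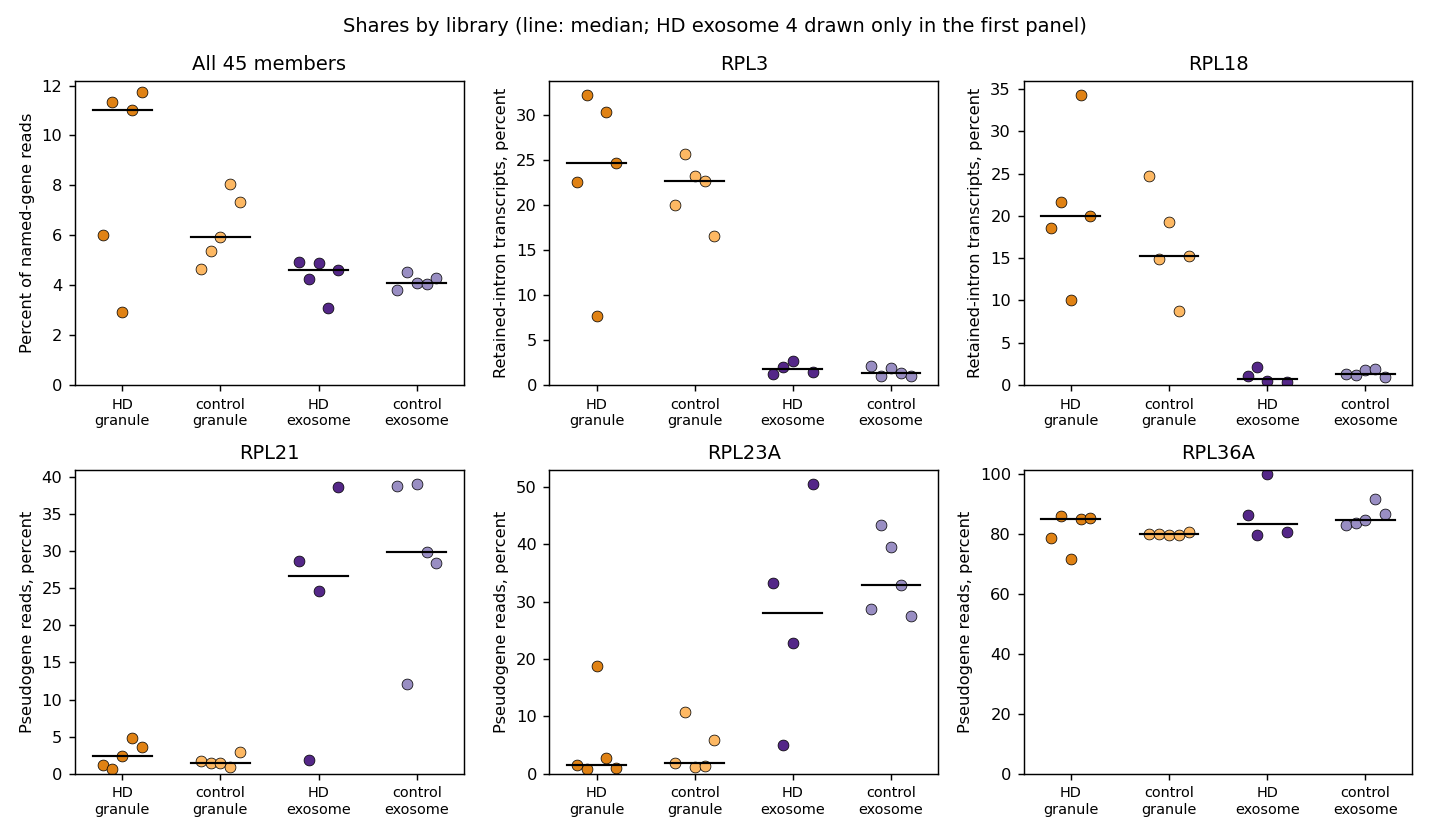
Each point is a library, grouped as HD granules, control granules, HD exosomes and control exosomes, with a line at the median. The panels show the percent of named-gene reads on all 45 members, the retained-intron share of RPL3 and RPL18 (higher in granules) and the pseudogene share of RPL21, RPL23A and RPL36A, with HD exosome 4 drawn in the first panel only.

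The other ribosome-related lists, chosen with earlier results of these data known, show where the members lie, and are to be read against 30.0% of all genes higher and 32.5% lower in control cells and 11.9% and 5.77% in HD-induced cells. Of 32 small-subunit mRNAs, 17 were higher and 5 lower in control granules, with a median log2 fold change of 0.81. RPS27 was higher at 2.17 ± 0.18 (SE) and RPS29 at 1.90 ± 0.15. In HD-induced cells the count was 7 higher and 0 lower, with a median of 1.35. Among 17 other TOP mRNAs of the translation machinery, 3 were higher and 11 lower in control granules (median -0.90). EEF2, which moves the ribosome along the mRNA, was lower at -2.68 ± 0.28 and EEF1A1, which brings tRNA, at -1.84 ± 0.17.

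Factors that assemble the large subunit numbered 7 higher and 17 lower of 32 (median -0.74), among them EIF6, which keeps free 60S subunits apart from 40S, at -2.21 ± 0.17, and PES1 at -2.04 ± 0.14. Of 49 mRNAs of the mitochondrial large subunit, 16 were higher and 16 lower (median 0.10), near the share of all genes. Among 12 genes of the LARP1 and mTOR route to TOP mRNAs, 2 were higher and 3 lower (median -0.15), with LARP1, named here for its role, at -0.35 ± 0.21 without passing the test and EIF4EBP2, a repressor of cap-dependent translation, lower at -2.04 ± 0.09. Paralogs of members gave 3 higher and 2 lower of 6 tested, with RPL22L1 higher at 2.58 ± 0.18, RPL36AL higher at 1.63 ± 0.22 and RPL7L1 lower at -1.43 ± 0.13. RPL10L was at 0 CPM in control granules and at a mean of 21.5 CPM in control exosomes. The HD-induced comparison of granules and exosomes gave 0 higher and 2 lower of 17 TOP mRNAs and 2 higher and 4 lower of 32 assembly factors.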

How the data were processed

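Total RNA from granules and exosomes of HEK293 cells was sequenced, and the deposited tables hold, per transcript, an estimated (expected) count and a TPM value made by the authors. The submitters' processing notes name Trimmomatic, cutadapt, FastQC, Salmon and build GRCh38.p14, with versions and settings not given in the sources used here. The authors' expected counts were summed per gene and rounded. Entries with no gene name took 24.9 to 59.2% of reads, and 86.6% in HD exosome 2, and stayed out of library sizes and tests. Each comparison used its own groups, the filterByExpr filter, TMM factors and edgeR 4.0.16 (R 4.3.3) with its quasi-likelihood test in robust form, with Benjamini-Hochberg adjustment over all genes tested, and the SE is the absolute log2 fold change over the square root of F. CPM values are comparable only within a comparison. Total reads per library run from 1074 to 38.4 M (M stands for 1000000), and in library 4 of the HD exosomes 31 of 45 members were at 0 and 0 members reached 10 reads.

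Alternatives were DESeq2 1.42.0, voom with sample quality weights in limma 3.58.1, other size factors, no count filter, a replicate block, pseudogene reads added to parents, protein-coding transcripts alone, a GC correction and libraries left out. The test was also run on simulated independent counts, with equal gene proportions in all libraries apart from the changes put in. Such counts lack the shifts in makeup between libraries seen here, so that run does not cover them. Named members were the 6 called with the largest fold change in each direction, or the 2 with the smallest p where none was called, the 3 highest and 3 lowest in TPM per group, and up to 4 called genes of other lists. The members are a set of symbols that uses no measured value, but this set and the other lists were chosen with earlier results of these data known. Transcript GC and coding length came from GENCODE release 29, and start positions and sequences from RefSeq. Equal replicate numbers share no stated culture or day, and correlations of same-numbered libraries ran from -0.27 to 0.61.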

Additional observations from a re-analysis of the deposited data

Results flagged for a closer look

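Of 40 groups of 5 values examined, 3 held a library far from the others, and chance gives about 1 in 20 groups. RPL28 stood at 414 TPM in HD granule 3, against a median of 55.2 TPM in HD granules and a next highest value of 61.0 TPM. RPL27A stood at 273 TPM in HD exosome 5, where the median of HD exosomes was 36.7 TPM and the next highest value 62.1 TPM. Retained-intron transcripts took 0% of member reads in HD exosome 4, a library with 22 member reads, against a median of 10.9% and a next lowest value of 9.96% in HD exosomes.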

How the results depend on the processing

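In control cells the counts of 24 members higher and 9 lower in granules moved by less than 1.5 times in every alternative run, with 24 to 27 higher and 8 to 9 lower when a library was left out. In HD-induced cells the counts of 11 higher and 1 lower moved to 17 and 3 with no count filter, 24 and 3 with DESeq2, 27 and 5 with voom and quality weights, and 24 and 7 without the 3 doubted libraries (HD granule 3 and HD exosomes 2 and 4). The lower count was 2 with protein-coding transcripts alone and 5 with the GC correction. Leaving out single libraries gave 0 to 24 higher and 0 to 6 lower. Shares of all genes are not given here for no count filter, protein-coding transcripts alone, or control runs with a library left out. Such counts show only how the calls depend on the processing. The replicate block gave 4 higher and 2 lower in HD-induced cells and 24 and 9 in control cells. The pairing by number was not established, since same-numbered libraries correlated at -0.27 to 0.61 and not every one was above 0.1. Replicate 5 had its highest correlation with the same number in every comparison, at 0.35, 0.35, 0.38 and 0.61. Replicate 1 did so in all but HD over control granules, and replicates 2, 3 and 4 in none. Some named log2 fold changes that had not been called turned sign. With the GC correction, RPL13 and RPL8 in HD over control exosomes were 0.086 and 0.14. For RPL14 in HD over control granules the value was 0.081 with voom, 0.023 with protein-coding transcripts, and -0.19 to 0.056 with single libraries left out, positive without HD granule 3 (0.056), control granule 4 (0.0070) or control granule 5 (0.053). The difference of HD effects was 0.046 with voom and -0.80 to 0.0076 with single libraries left out for RPL27A, the highest without HD exosome 5, and 0.11 with protein-coding transcripts for RPL14. The cause was not tested. Median-ratio factors moved the median of all genes to 0.09 in control cells and 0.32 in HD-induced cells, against -0.02 and 0.17 with TMM. Upper-quartile factors were not run where HD exosome 4 was included. The length relation under the GC correction, and without the doubted libraries, was added after seeing the data.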
